A study of Rattus norvegicus with 6 samples.

Results

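The genes described here are 38 genes of PPAR alpha action and fatty acid oxidation in rat liver, of 15645 genes that the arrays' RefSeq accessions could be matched to. They were taken from a list of enzymes, carriers and regulators, and not by a cut on their measured values. Earlier results of these data were known when the list was made, so the choice was not blind to the data. Each gene was placed in 1 group by where its protein works. The groups were 4 microsomal, 13 peroxisomal and 18 mitochondrial genes, and 3 of fatty acid uptake, binding and the cell surface. No allowance was made for proteins found in more than 1 compartment. Liver RNA of 6 male Sprague-Dawley (Crl:CD(SD)) rats, bought at 5 weeks of age, was hybridised to 1-colour Agilent arrays, with each animal on its own array. The vehicle group (n = 3) received corn oil, and the TBBC group (n = 3) received TBBC, a phenolic antioxidant of rubber and plastics in which a sulfur atom bridges a pair of tert-butyl cresol rings, at 300 mg/kg/day. No group carried an altered gene, and the vehicle in which TBBC was given is not stated in the sources used here. The length of dosing is given as 28 days in the series text and as 9 weeks in the treatment protocol. The question put to these genes is whether their transcript levels differed between dosed and undosed animals.

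Each of the 38 genes was matched by at least 1 probe, and each was well above background on all 6 arrays, so none was lost to the filter on dim probes. The 75th percentile of the signal ranged from 465.2 to 638.2 over the arrays, and 36919 to 39386 of 61537 probes per array were well above background. All vehicle arrays shared 1 slide and scan and all TBBC arrays another, so slide and treatment cannot be told apart. Levels are given below as the signal of a gene's brightest probe divided by the 75th percentile of its array. Such levels compare animals and cannot rank genes, since probes differ in brightness. Differences are log2 values, TBBC minus vehicle, each with limma's moderated standard error, and "adjusted p" is limma's p after Benjamini-Hochberg adjustment over all 29326 features. In whole liver, less RNA per cell and fewer cells of a type cannot be told apart.

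Hepatocytes burn fatty acids in several compartments. Long straight chains enter mitochondria as carnitine esters and are shortened to acetyl-CoA. Peroxisomes shorten very long and branched chains, and microsomal cytochromes of the Cyp4a subfamily hydroxylate the end of the chain. PPAR alpha is the nuclear receptor that fatty acids and fibrate drugs activate. With its partner RXR it binds direct repeats of the letters AGGTCA in DNA, and in rodent liver it induces enzymes of all of these compartments. Cyp4a1, Ehhadh and the peroxisomal thiolases are classical targets.

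With TBBC, 3 of the 38 genes rose, none fell and 35 did not pass the test. The fatty acid translocase Cd36 rose 4.45-fold, the peroxisomal bifunctional enzyme Ehhadh 2.71-fold and the peroxisomal thiolase Acaa1b 2.26-fold. Over all features, 1.68% were called higher and 1.4% lower, and 1.88% of the 11235 named genes were called higher. At an unadjusted limma p under 0.05, 13 of the 38 were higher and 0 lower, where 9.47% of all features were higher and 13.5% lower. Their median log2 difference was 0.21, beside -0.06 over all features and -0.02 over named genes, and 24 of 38 were positive. In 14 of the 38 (36.8%) every TBBC animal was above every vehicle animal, where 12.3% of all features and 15.5% of named genes showed this. In 2 of the 38, Acads and Decr1, every TBBC animal was below every vehicle animal, where 18.8% of all features did. The medians by compartment were 0.37 for the peroxisomal genes, 0.02 for the mitochondrial genes, 0.05 for the microsomal genes and 0.79 for the 3 genes of uptake and binding. No test was made between compartments.

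The count of 3 depends on the number of arrays and on the settings. It was 0 or 1 when any 1 array was left out, among them vehicle replicate 2, which had the lowest 75th percentile, and 0 with no filter on dim probes. It was 5 with arrays centred on their median and 6 with normexp background correction. Arrays scaled on their spike-in controls gave 32 positive genes in place of 24, because that scaling moved the median of all features from -0.06 to 0.13. Both scalings shift whole arrays, so medians measured from the median over all features must be the same under either. They were 0.43 for the peroxisomal and 0.08 for the mitochondrial genes. With quantile normalization they were 0.39 and 0.04, and with normexp background correction 0.46 and 0.17.

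**Figure D1:**
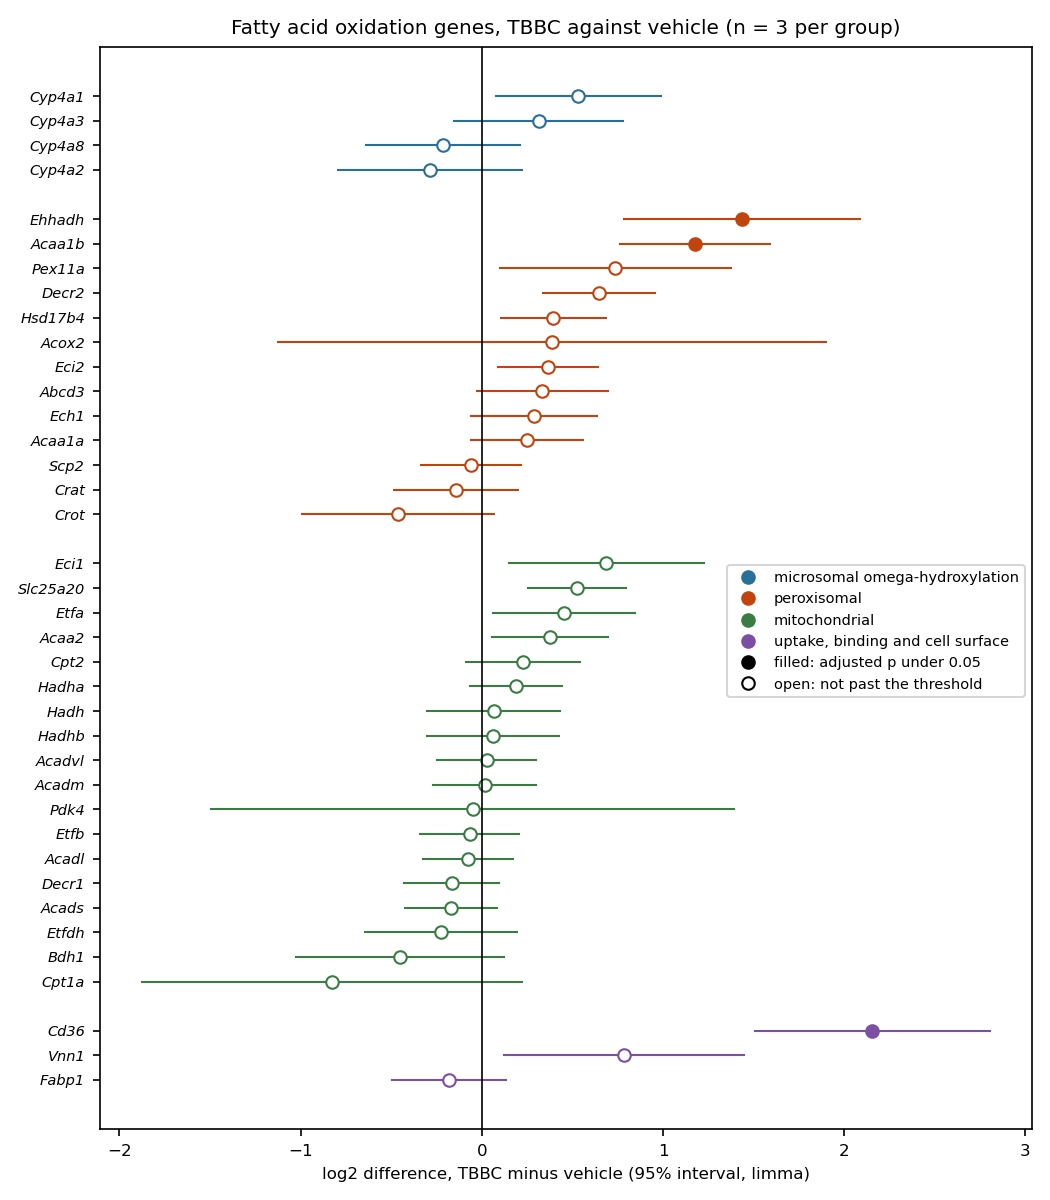
Log2 difference (TBBC minus vehicle, x axis) of the 38 genes with its 95% interval from limma, grouped and coloured by compartment, n = 3 animals per group; filled points have an adjusted p under 0.05. The filled points are Ehhadh, Acaa1b and Cd36, most mitochondrial genes lie near 0, and Acox2, Pdk4 and Cpt1a have the widest intervals.

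Among the genes of fatty acid uptake and binding, Cd36 had the largest difference of all 38. Cd36, which carries long-chain fatty acids across the plasma membrane and is expressed in hepatocytes, macrophages and endothelium, had levels of 4.56, 5.77 and 9.77 in vehicle replicates 1 to 3. In TBBC replicates 1 to 3 its levels were 28.8, 27.8 and 28.4. On this brightest probe the TBBC animals were nearly alike, while the vehicle animals differed among themselves and vehicle replicate 3 was the highest of them. On the other 2 probes TBBC replicate 3 was the highest TBBC animal. They read 3.05, 3.23 and 4.33, and 4.9, 5.3 and 7.1, in TBBC replicates 1 to 3. Cd36 rose by 2.16 ± 0.27 (log2 difference ± SE, 3 animals per group, limma adjusted p = 0.0197). Its 3 probes gave 1.96, 2.16 and 2.19, so the rise did not rest on the choice of probe. With 1 array left out, the difference was 1.92 to 2.47 and the adjusted p 0.0105 to 0.0781. The call held in 1 of these 6 fits, without vehicle replicate 3. With no filter on dim probes the adjusted p was 0.0501.

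Markers of the other cell types that express Cd36 were measured in the same animals. The summed level of 11 Kupffer and myeloid markers was 79.9 to 147 in vehicle animals and 85.9 to 151 in TBBC animals, and that of 7 sinusoidal endothelial markers was 29.0 to 51.5 and 37.1 to 42.0. Such sums mostly follow the brightest probe of a list. The differences of the single myeloid markers ran from -0.41 to 0.39 (median 0.02). Those of the endothelial markers ran from -0.52 to 0.74 (median 0.09). None of these markers passed the test. Of 7 adipocyte markers, 4 were measured and none passed, and Adipoq and Lep, which define adipocytes, were not retained by the filter. Fabp4 differed by 1.87 ± 0.74 (limma adjusted p = 0.200), Retn by 0.53, Cfd by 0.11 and Cidec by -0.65. The probe of Fabp4 was well above background on 3 TBBC arrays and only 1 vehicle array, so the size of its difference is uncertain. The part of these cells in the level of Cd36 was not tested.

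Vnn1, a pantetheinase on the hepatocyte surface and a PPAR alpha target, had levels of 12.5, 10.5 and 17.0 with vehicle and 26.6, 15.6 and 27.3 with TBBC. TBBC replicate 2 lay below vehicle replicate 3, and the groups overlapped. The difference of Vnn1 was 0.79 ± 0.28 (adjusted p = 0.167, 95% interval 0.12 to 1.45). Fabp1, the abundant fatty acid binding protein of hepatocyte cytosol, had levels of 1170, 1246 and 992 with vehicle and 1085, 947 and 961 with TBBC. Its difference was -0.18 ± 0.13 with a 95% interval of -0.50 to 0.13, and its brightest probe was not flagged as saturated on any array.

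Peroxisomal enzymes held the other genes that rose. Ehhadh, whose protein carries out the hydration and the second oxidation of the peroxisomal cycle, had levels of 17.3, 22.7 and 19.0 with vehicle. With TBBC its levels were 73.0, 35.5 and 57.2, all above the vehicle animals, with TBBC replicate 2 the lowest of the TBBC animals. Ehhadh rose by 1.44 ± 0.27 (adjusted p = 0.0477), a value just inside the threshold. With 1 array left out the difference was 1.20 to 1.72 and the adjusted p 0.0451 to 0.139, and the call held only without TBBC replicate 2. It was also lost with quantile normalization (1.41, adjusted p = 0.0661) and with no filter on dim probes (adjusted p = 0.107).

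Acaa1b is 1 of a pair of rat thiolases that release acetyl-CoA at the end of the peroxisomal cycle. Its levels were 245, 238 and 225 with vehicle and 685, 457 and 485 with TBBC. The vehicle animals were tightly grouped, and each TBBC animal lay far above them. Acaa1b rose by 1.18 ± 0.17 (adjusted p = 0.0282). With 1 array left out the difference was 0.995 to 1.29 and the adjusted p 0.0364 to 0.0945, and the call held only without TBBC replicate 1. With no filter on dim probes the adjusted p was 0.0712.

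The other thiolase, Acaa1a, did not pass the test on its brightest probe, and its probes disagreed. That probe read 332, 335 and 300 with vehicle and 437, 345 and 372 with TBBC, a difference of 0.25 ± 0.13 (adjusted p = 0.299). The other 2 probes of Acaa1a gave 1.27 ± 0.19 and 1.02 ± 0.18 (adjusted p = 0.029 and 0.0386 over all retained probes in limma). The mean of the 3 probes gave a difference of 0.85 (adjusted p = 0.0463). All 3 probes of Acaa1b were higher, at 1.18, 1.37 and 1.62.

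A probe of Acaa1a and a probe of Acaa1b read nearly the same level in every animal. The Acaa1a probe read 108, 94.6 and 95.6 with vehicle and 317, 195 and 221 with TBBC. The Acaa1b probe read 103, 83.6 and 89.2 with vehicle and 317, 192 and 219 with TBBC. The transcripts of these near-identical genes can bind each other's probes, so the split between Acaa1a and Acaa1b is uncertain, and the probe sequences were not used here.

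**Figure D2:**
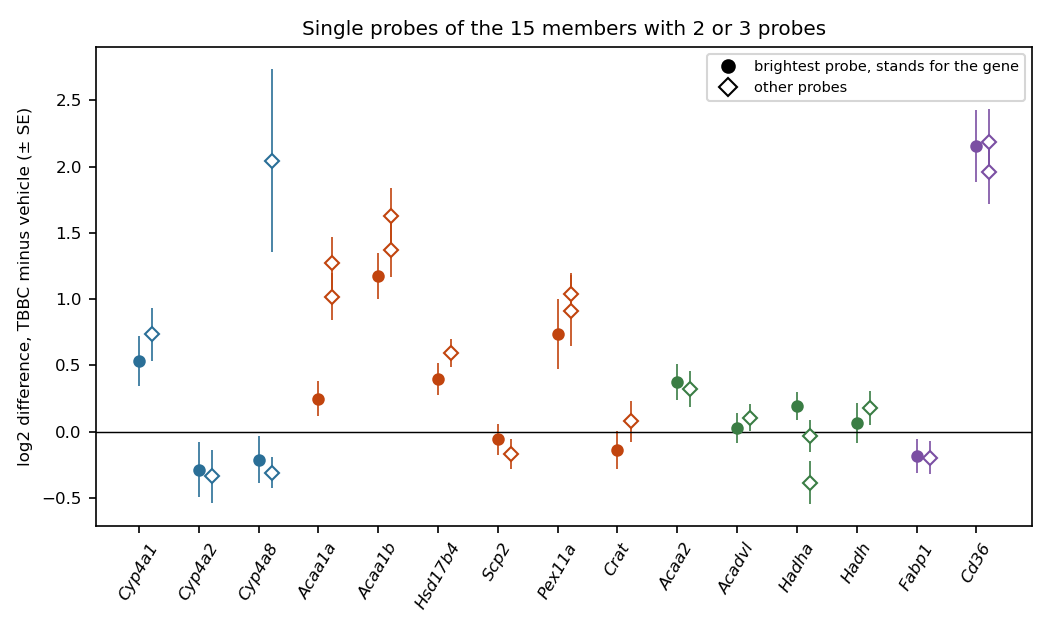
Log2 difference (TBBC minus vehicle, ± SE, y axis) of each probe of the 15 genes with 2 or 3 probes; circles are the brightest probe, which stands for the gene, and diamonds the others, coloured by compartment. The 3 probes of Cd36 lie between 1.96 and 2.19, while those of Acaa1a spread from 0.25 to 1.27 and those of Cyp4a8 from -0.31 to 2.05.

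On their brightest probes, the remaining peroxisomal enzymes showed smaller differences, none of which passed. Decr2, the peroxisomal dienoyl-CoA reductase that handles unsaturated chains, had levels of 7.41, 6.06 and 7.02 with vehicle and 11.5, 10.8 and 9.72 with TBBC. The groups were well apart, and its difference of 0.65 ± 0.13 had an adjusted p of 0.0543, just outside the threshold. It passed in 5 of 18 other settings, among them eBayes with trend and robust (adjusted p = 0.0296). Hsd17b4, the other bifunctional enzyme, which serves branched chains and bile acid precursors, differed by 0.39 ± 0.12 (adjusted p = 0.130). The other probe of Hsd17b4 gave 0.59 ± 0.11 (adjusted p = 0.0409 over all retained probes in limma). Eci2, an isomerase of unsaturated chains, differed by 0.37 ± 0.11 and Ech1, an isomerase of dienoyl-CoA, by 0.29 ± 0.15. Abcd3, the membrane carrier that brings acyl-CoA into the peroxisome, differed by 0.33 ± 0.15. In Hsd17b4, Eci2, Abcd3, Decr2 and Acaa1a, as in the genes that rose, the lowest TBBC animal was above the highest vehicle animal.

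Pex11a, which promotes division of peroxisomes and is a PPAR alpha target, had levels of 37.4, 26.1 and 51.4 with vehicle and 73.8, 61.3 and 51.3 with TBBC. TBBC replicate 3 and vehicle replicate 3 were level, and the difference was 0.74 ± 0.27 (adjusted p = 0.176). Its other 2 probes gave 0.91 ± 0.27 and 1.04 ± 0.16, the latter with an adjusted p of 0.0283 over all retained probes. The latter probe was dim, with levels of 0.759 to 1.935 over the arrays, against 26.1 to 73.8 on the brightest probe. Counting a gene when any of its probes passed, 6 of the 38 were higher with TBBC: Acaa1a, Acaa1b, Cd36, Ehhadh, Hsd17b4 and Pex11a. Counted the same way, 2.52% of named genes were higher and 1.82% lower, and 0 of the 38 were lower. A gene with more probes has more chances to pass: of named genes with 2 or more retained probes 2.97% were higher, and of the 15 such genes among the 38, 5 were. The 6 and the 5 each include Acaa1a and Acaa1b as separate genes. Since their transcripts can bind each other's probes, these may not be separate rises. This way of counting was added after the data were seen.

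Of the 13 peroxisomal genes, 3 had negative differences: Scp2, Crat and Crot. Scp2, which holds a thiolase for branched chains, differed by -0.06 ± 0.12. Crat and Crot move acetyl and medium-chain acyl groups to carnitine for export, and differed by -0.14 ± 0.14 and -0.46 ± 0.22. Crot was highest in vehicle replicate 3, at 67.0, with 46.1 and 41.2 in the other vehicle animals and 44.5, 32.3 and 33.8 with TBBC. Acox2, the oxidase of branched chains and bile acid precursors, had levels of 10.5, 13.9 and 12.9 with vehicle and 7.71, 47.3 and 11.6 with TBBC. A single animal, TBBC replicate 2, stood above all others, and the difference of 0.39 ± 0.63 had a 95% interval of -1.12 to 1.90.

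**Figure D3:**
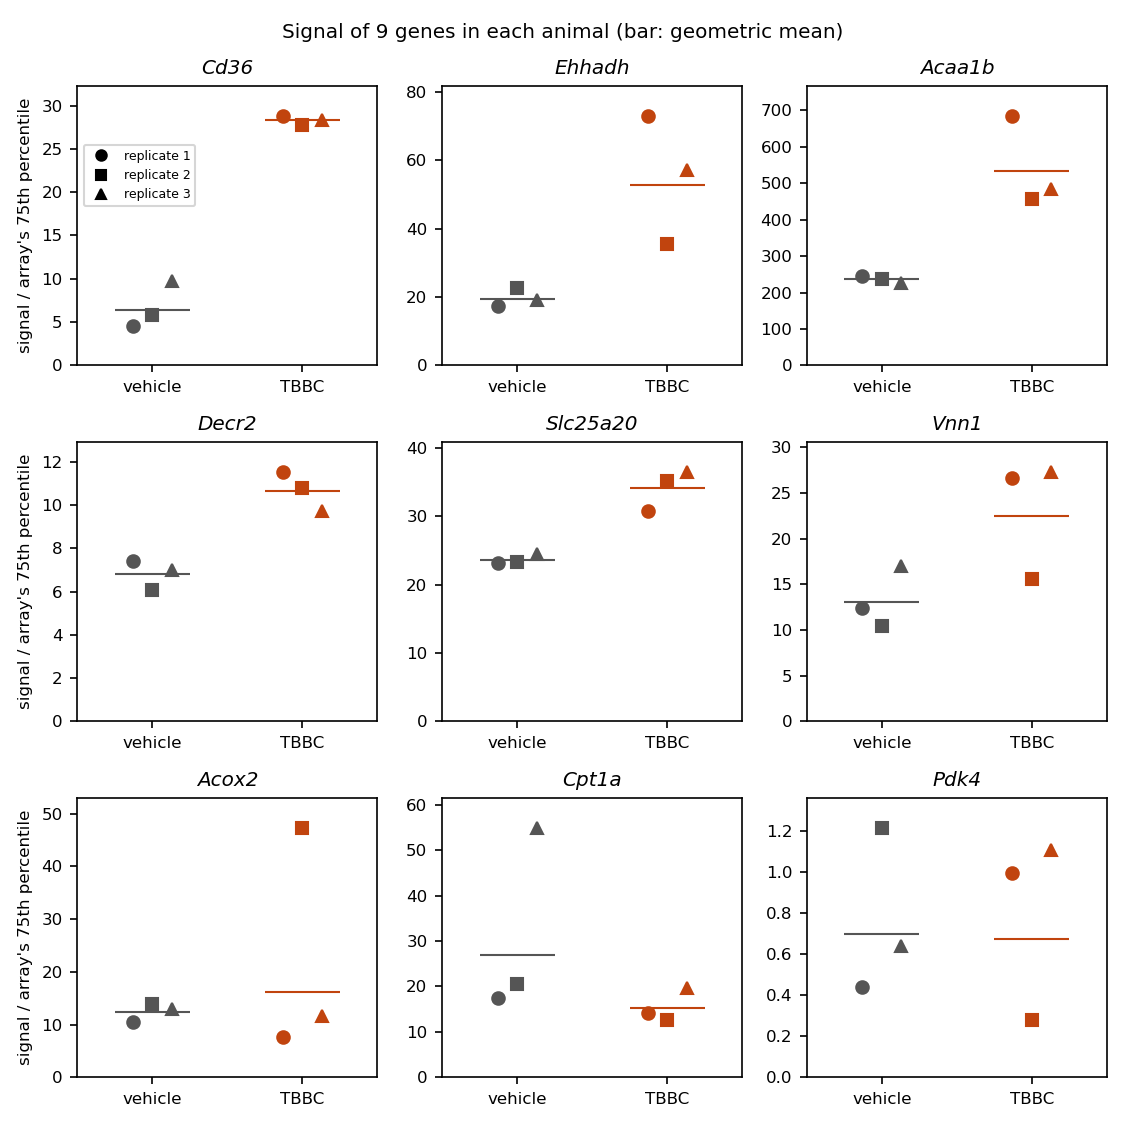
Level (signal divided by the array's 75th percentile, linear y axis from 0) of 9 genes in each animal; point shapes mark the replicate number and bars the geometric mean of 3 animals. On its brightest probe Cd36 was 27.8 to 28.8 in all TBBC animals, and Ehhadh ranged from 35.5 to 73.0 in them. Single animals stood apart for Acox2 (TBBC replicate 2, 47.3) and Cpt1a (vehicle replicate 3, 54.9).

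Mitochondrial oxidation genes were measured as 18 genes, and none passed the test. In 14 of the 18 the 95% interval lay within 1 log2 unit of 0 on either side, which is a 2-fold difference. In 5 of the 18 (27.8%) every TBBC animal was above every vehicle animal, where 12.3% of all features and 15.5% of named genes showed this. In 2 of the 18 (11.1%) every TBBC animal was below every vehicle animal, where 18.8% of all features did. Of the 5 genes whose TBBC animals were all higher, Slc25a20 came nearest to the threshold. It encodes the carrier that brings acylcarnitines through the inner membrane, and had levels of 23.2, 23.4 and 24.5 with vehicle and 30.9, 35.2 and 36.5 with TBBC. The animals of each group lay close together, and the difference was 0.53 ± 0.11 (adjusted p = 0.0654). It passed in 4 of 18 other settings, among them arrays centred on their median (0.62, adjusted p = 0.0441).

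Eci1, the mitochondrial isomerase of unsaturated chains, had levels of 131, 93.6 and 171 with vehicle and 229, 190 and 201 with TBBC, a difference of 0.69 ± 0.23 (adjusted p = 0.147). The vehicle animals spread more widely than the TBBC animals. Etfa, a subunit of the flavoprotein that takes electrons from the acyl-CoA dehydrogenases, differed by 0.45 ± 0.16. Its partner subunit Etfb differed by -0.07 ± 0.11 and the receiving oxidoreductase Etfdh by -0.22 ± 0.18. Acaa2, the mitochondrial thiolase, differed by 0.38 ± 0.13 and Hadha, the alpha subunit of the trifunctional protein, by 0.19 ± 0.11. The 3 probes of Hadha gave 0.19, -0.03 and -0.38, so its sign depends on the probe.

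The acyl-CoA dehydrogenases, which carry out the first oxidation and are ordered by chain length, lay close to 0. Acadvl (very long chains) differed by 0.03 ± 0.11, Acadl (long) by -0.08 ± 0.10, Acadm (medium) by 0.02 ± 0.12 and Acads (short) by -0.17 ± 0.11. The 95% interval of Acadm was -0.27 to 0.30. Acads read 114, 113 and 103 with vehicle and 99.7, 100.3 and 93.2 with TBBC, so its groups did not overlap although the difference was small. Decr1, the mitochondrial dienoyl-CoA reductase, was the other gene with all TBBC animals lower, at -0.17 ± 0.11. Hadhb and Hadh, which complete the cycle with Hadha, differed by 0.06 ± 0.15 and 0.07 ± 0.15.

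Other genes of this compartment gate entry to the cycle or respond to fasting, and Cpt1a and Pdk4 among them varied widely within a group. Cpt1a, the regulated step that makes acylcarnitines at the outer membrane, had levels of 17.4, 20.6 and 54.9 with vehicle and 14.2, 12.7 and 19.6 with TBBC. Vehicle replicate 3 stood well above the rest, and the difference of -0.83 ± 0.44 had a 95% interval of -1.88 to 0.22. Its partner of the inner membrane, Cpt2, differed by 0.23 ± 0.13. Pdk4, the kinase that shuts off pyruvate oxidation in fasting, was dim, with levels of 0.44, 1.22 and 0.64 with vehicle and 0.99, 0.28 and 1.11 with TBBC. Its difference was -0.05 ± 0.60. Bdh1, which makes the ketone body hydroxybutyrate, had levels of 36.1, 30.3 and 31.4 with vehicle and 34.5, 21.1 and 18.5 with TBBC, a difference of -0.45 ± 0.24 (adjusted p = 0.308).

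Microsomal Cyp4a enzymes, the classical markers of PPAR alpha activation in rats, did not pass the test. Cyp4a1 had levels of 95.1, 103 and 114 with vehicle and 147, 120 and 193 with TBBC. Its groups did not overlap, and the difference was 0.53 ± 0.19 (adjusted p = 0.171, 95% interval 0.08 to 0.99). It passed in 1 of 18 other settings, with normexp background correction (0.84, adjusted p = 0.0436). Cyp4a3 differed by 0.31 ± 0.20, Cyp4a8 by -0.21 ± 0.18 and Cyp4a2 by -0.29 ± 0.21, and in each of these the groups overlapped. The upper ends of the 95% intervals were 0.78 for Cyp4a3, 0.22 for Cyp4a2 and 0.21 for Cyp4a8, so on the brightest probes no Cyp4a interval reached a 2-fold rise. This does not hold for every probe. The other probe of Cyp4a1 gave 0.73 ± 0.20 (adjusted p = 0.103 over all retained probes). A dim probe of Cyp4a8, well above background on 2 of 3 vehicle arrays, gave 2.05 ± 0.69 (adjusted p = 0.154 over all retained probes), against -0.21 and -0.31 for the brighter probes. Probes of Cyp4a genes can bind RNA of close relatives, so values of single members are uncertain.

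Promoter sequences are shown for the 3 genes that rose and for 2 with a PPAR-type repeat, since the receptor acts through such letters. RefSeq promoters of the build GRCr8 were matched for 32 of the 38 genes, and the 250 bases before each start site were searched on either strand for AGGTCA, and for 2 copies of it with 1 base between, allowing 2 mismatches over 12 letters. A match to the second motif can overlap a match to the first. The first occurred in 6 of 32 promoters (18.8%) and in 13.7% of 27457 promoters of that length. The second occurred in 4 of 32 (12.5%) and in 3.1% of all. Those 4 were Fabp1 and Acadvl, each with 1 mismatch, and Crat and Etfa, each with 2. In Fabp1 the repeat lies 77 to 65 bases before the start, on the other strand, and in Acadvl 17 to 5 bases before it. Capitals mark every match in the lines below, which run 5′ to 3′ on the gene's strand.
Cd36, chr4:18246332-18246581, plus strand: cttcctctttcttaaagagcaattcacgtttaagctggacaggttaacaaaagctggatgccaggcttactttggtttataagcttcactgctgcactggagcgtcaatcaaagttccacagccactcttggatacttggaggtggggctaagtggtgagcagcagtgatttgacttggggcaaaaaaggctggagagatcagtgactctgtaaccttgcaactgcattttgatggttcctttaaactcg
Ehhadh, chr11:92746159-92746408, plus strand: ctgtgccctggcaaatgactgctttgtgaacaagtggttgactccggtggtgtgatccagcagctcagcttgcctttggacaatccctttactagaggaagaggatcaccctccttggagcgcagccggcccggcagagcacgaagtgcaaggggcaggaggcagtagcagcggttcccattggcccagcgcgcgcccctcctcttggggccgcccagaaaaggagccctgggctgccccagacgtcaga
Acaa1b, chr8:127759570-127759819, minus strand: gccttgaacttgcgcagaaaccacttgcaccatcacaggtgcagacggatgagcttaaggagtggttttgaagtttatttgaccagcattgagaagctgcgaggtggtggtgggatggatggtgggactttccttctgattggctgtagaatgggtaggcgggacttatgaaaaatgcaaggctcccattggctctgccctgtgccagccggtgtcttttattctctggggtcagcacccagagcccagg
Fabp1, chr4:104749090-104749339, plus strand: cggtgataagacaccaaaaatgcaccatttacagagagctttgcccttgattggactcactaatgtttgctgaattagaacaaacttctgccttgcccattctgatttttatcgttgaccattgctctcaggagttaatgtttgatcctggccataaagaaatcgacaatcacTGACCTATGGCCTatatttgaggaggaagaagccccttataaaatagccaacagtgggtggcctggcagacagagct
Acadvl, chr10:55236706-55236955, minus strand: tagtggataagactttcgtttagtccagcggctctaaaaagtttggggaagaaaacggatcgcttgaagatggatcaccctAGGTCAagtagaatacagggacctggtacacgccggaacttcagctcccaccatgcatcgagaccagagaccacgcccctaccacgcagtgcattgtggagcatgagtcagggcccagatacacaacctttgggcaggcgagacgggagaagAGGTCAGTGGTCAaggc
None of the 3 genes that rose holds either motif in its window, which says only that these letters are not in these 250 bases. Of the 4 genes that hold the repeat, Fabp1 differed by -0.18 ± 0.13, Acadvl by 0.03 ± 0.11, Crat by -0.14 ± 0.14 and Etfa by 0.45 ± 0.16. None of them passed the test, and in Etfa every TBBC animal was above every vehicle animal.

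Each animal was also described by compartment. The median deviation of the 13 peroxisomal genes from their vehicle means was 0.45, 0.26 and 0.35 in TBBC replicates 1 to 3. It was between -0.06 and 0.05 in the vehicle animals. TBBC replicate 1 was the highest TBBC animal for 11 of the 13 genes, and TBBC replicate 2 the lowest for 8. The 18 mitochondrial genes had median deviations of 0.11, 0.02 and 0.02 in TBBC replicates 1 to 3 and of 0.06, -0.08 and -0.03 in vehicle replicates 1 to 3. For these the animals of both groups overlapped. The spread within a group differed by gene. Over the 38 genes the SD of log2 levels was 0.04 to 0.89 among vehicle animals (median 0.17) and 0.01 to 1.37 among TBBC animals (median 0.14), with Cpt1a the most variable in vehicle and Acox2 in TBBC.

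**Figure D4:**
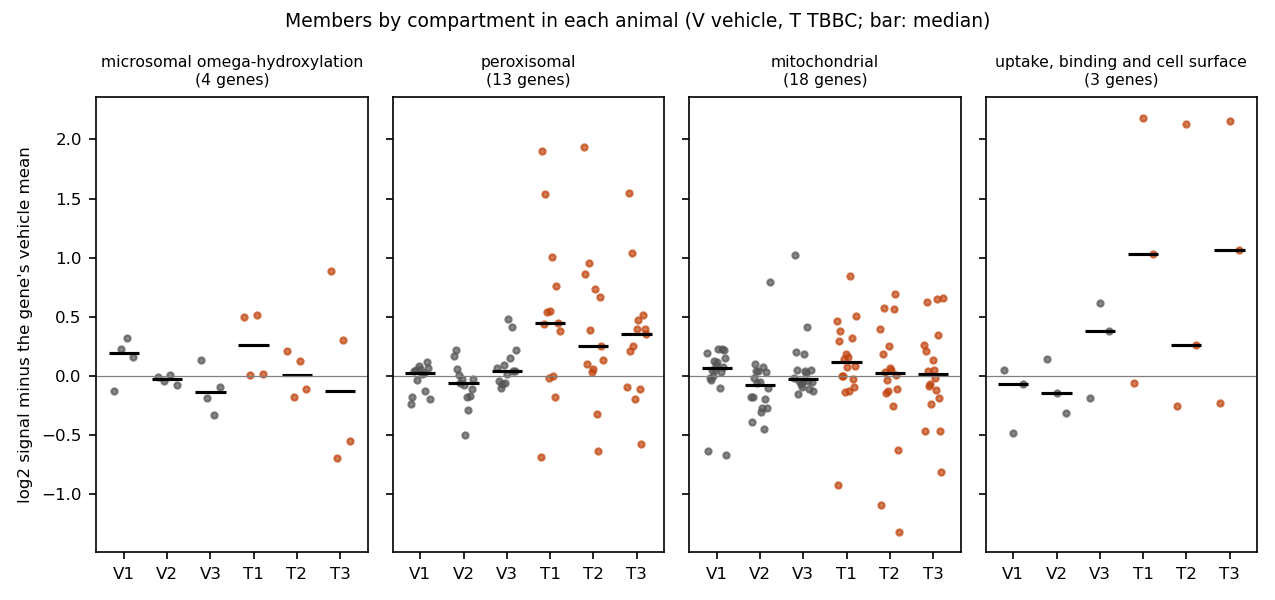
Log2 level of each gene minus its mean in vehicle animals (y axis) in each of 6 animals (x axis), in 4 panels by compartment; points are genes and bars the median over the genes. The peroxisomal medians of the 3 TBBC animals (0.26 to 0.45) lie above those of the vehicle animals, while the mitochondrial medians (0.02 to 0.11 with TBBC) do not stand apart.

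The wider pathway was described from 177 further genes in 6 lists, of which 157 were measured. Of these, 4 rose, 2 fell and 151 did not pass, where 1.68% of all features were called higher and 1.4% lower. The 4 include Acacb, whose probe was retained through the TBBC arrays alone. None of 18 receptor and cofactor genes passed, with a median of -0.24. Ppara itself, the receptor, had levels of 2.76, 2.35 and 1.25 with vehicle and 1.37, 1.35 and 1.08 with TBBC, a difference of -0.68 ± 0.30 (adjusted p = 0.239). Vehicle replicate 3 lay within the TBBC animals, so the groups overlapped.

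Of 39 further peroxisomal genes, 2 rose and 0 fell, with a median of 0.16. Among them, Pex11g, a relative of Pex11a that shapes peroxisomal membranes, rose by 0.65 ± 0.11 (adjusted p = 0.0342).

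Of 27 genes of fatty acid supply and activation, Slc27a5, which activates very long chains and bile acids, rose by 1.29 ± 0.15 and none fell. Of 24 further mitochondrial and ketone genes, 1 rose, Acacb, by 1.73 ± 0.27. Its product makes malonyl-CoA, which inhibits Cpt1a. Its probe was dim and was retained through the TBBC arrays alone, since only 2 of the 3 vehicle arrays had it well above background, so the size of its rise is uncertain. None of 14 further omega-oxidation genes passed. Of 35 further PPAR-responsive genes, 0 rose and 2 fell. Fgf21, the hormone that PPAR alpha induces in fasting, had levels of 5.44, 2.84 and 8.65 with vehicle and 0.58, 0.33 and 0.23 with TBBC, and it fell by 3.86 on the log2 scale (SE 0.48, adjusted p = 0.0193). The glycerol kinase Gk fell by 1.03 on the log2 scale (SE 0.15, adjusted p = 0.0288). In that list 15 of 35 genes were positive, with a median of -0.05.

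The tissue label was checked with 12 hepatocyte genes, all of which were measured on every array. Their summed level was 6330 to 7690 in vehicle animals and 6170 to 6330 in TBBC animals, and none passed the test. None of 9 markers of T, B and NK cells passed (summed level 3.97 to 4.44 and 2.85 to 4.09), none of 4 erythroid genes (447 to 776 and 571 to 729), and none of 3 measured muscle genes, while 0 of 6 pancreas genes were retained. Of 6 biliary markers 1 rose, and of 9 stellate and fibroblast markers 1 rose and 1 fell. The biliary sum was 1.36 to 1.51 with vehicle and 2.95 to 4.33 with TBBC, and Epcam, the biliary marker that rose, differed by 1.83 ± 0.21 (adjusted p = 0.0147). Without Epcam, the sum of the other 5 markers was 0.487 to 0.832 with vehicle and 0.597 to 0.695 with TBBC. Of these, Krt19, Spp1 and Cftr had positive differences, of 0.44, 0.25 and 1.16, and Krt7 and Cldn4 negative ones, of -0.33 and -0.21. None of the 5 passed, and Cftr was well above background on only 1 of 3 vehicle arrays. The part of these cells in the results above was not tested.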

How the data were processed

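The deposited scanner files hold spot intensity on a linear scale, extracted by the authors with Agilent Feature Extraction 10.7.1.1 per the file headers, which subtracts background. The deposited value table holds the same intensity times 1 constant per array (spread of the ratio 0.0093% to 0.0122% over bright probes) and was an alternative. Its column medians were 0.0972 to 0.1077, its scale is linear, no centring of genes was found and its direction is that of the signal. The deposited files also hold other columns: 0 or 1 flags for spots well above background, saturation and outliers.

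Control spots and 25 probes with an outlier flag were left out. Values were log2 of the processed signal minus each array's 75th percentile. A probe was kept where every array of either group had it well above background (37222 probes). RefSeq accessions named 28206 of 61537 probes (45.8%) through a gene table of GRCr8, and the header's build, rn4, was not used for coordinates. A gene is its kept probe with the highest mean, which gave 29326 features. The difference between groups was fitted with lmFit and eBayes of limma 3.58.1 (R 4.3.3), two-sided and with no covariate, and adjusted by Benjamini-Hochberg over all features, threshold 0.05. Intervals at 95% are per gene and unadjusted. The labels speak of separate animals. The fit was tested on simulated data.

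Named genes were all 38 members, with each animal's level for those past the threshold or among the 8 largest differences, up to 4 genes past the threshold per pathway list, and Ppara. The 6 biliary markers, the 4 measured adipocyte markers and the hepatocyte gene Apoa1 were named after their values were seen. Levels in each animal are also given for further genes chosen that way. Members, lists, motifs and tests were chosen with earlier results of these data known. A comparison of the proteins of Cyp4a and Acaa1 genes was planned and not run, since no protein sequences were used here. A gene counted in the pathway lists is not reported here by name.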

Additional observations from a re-analysis of the deposited data

How the results depend on the processing

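The 3 genes that rose had positive differences in all 18 other settings, and 0 genes were called lower in any of them. The number of the 38 called higher was 0 with no filter on dim probes, which tests more features, and 0 with the replicate number as a block. It was 5 with centring on the array median, with the probe of second highest mean, with eBayes with trend and robust, and with array weights, and it was 6 with normexp on median signals and with every probe on its own, a setting chosen after seeing the data. With 1 array left out it was 0 to 1, and the number of all features was 77 to 212 higher and 43 to 143 lower, beside 492 and 410 with all arrays. Over all features, 746 were higher with centring on the array median (306 lower), 809 with normexp (780 lower), 124 with no filter (70 lower) and 133 with the replicate block (78 lower). Spike-in scaling gave 584 higher and 154 lower, and array weights 632 lower. The deviations of same-numbered animals correlated at 0.004, -0.022 and 0.144, and those of differently numbered animals at -0.1 to 0.092. With 3 animals per group, these values cannot settle whether replicate numbers pair the animals, and the main fit took no pairing. With the block, no gene of the 38 was called.

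The median over the 38 was 0.31 with centring on the array median and 0.40 with spike-in scaling. The peroxisomal median was 0.46 and 0.56 in these, the mitochondrial 0.12 and 0.22, and the microsomal 0.25 with spike-in scaling and 0.41 with the mean of the probes. The first 2 settings shift whole arrays, so medians relative to all features did not change. Of the single-gene values, 15 lost a call with 1 array left out and 7 under the other settings, 13 passed where the reported value did not, and 0 called values changed sign. With 3 arrays per group, precision is limited. The slide could not be a block, since each slide held 1 group.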
